A study of Mus musculus with 12 samples.

Results

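The mitochondrial ribosomal protein genes were followed in mouse hepatocyte spheroids over a culture of 14 days. The genes were chosen by name: every probe set whose symbol is Mrpl or Mrps followed by a number was taken. This gave 76 genes of the 11861 genes with a symbol on the table, 48 of the large subunit (Mrpl) and 28 of the small subunit (Mrps). Each was read by 1 probe set. RefSeq lists 78 protein-coding mouse genes of this name pattern, and Mrpl53 and Mrps6 were the 2 with no probe set on the table. Among the probe sets on the table, the choice was by name alone.

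Mitochondrial ribosomes translate the few messenger RNAs that the mitochondrial genome encodes, all for subunits of the respiratory chain and the ATP synthase. Their RNAs come from the mitochondrial genome, but each of their proteins is encoded in the nucleus, made in the cytosol and imported. Hepatocytes are rich in mitochondria, so the level of these transcripts describes part of the supply line of the respiratory chain. Some of the proteins have counterparts in bacterial ribosomes, and others occur in mitochondria alone.

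Hepatocytes of male and female C57BL/6 mice had been isolated and frozen as 4 preparations, 2 of each sex, and each preparation was a pool of 3 mice. The cells aggregated on their own into spheroids in plates to which cells do not attach, and received no further treatment that the labels name. RNA of each preparation was read on an expression array at culture days 1, 7 and 14, which makes 12 arrays in 6 groups of sex and day with 2 arrays each. The preparations are called male 1, male 2, female 1 and female 2. There was no fresh liver and no freshly isolated cell among the arrays, so day 1 is the reference for each change. The labels say nothing of any cells that came along in the isolation.

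Values are log2 levels as the authors deposited them, where a difference of 1 is a doubling. The median of an array lay between 7.48 and 7.54, and arrays of the same group correlated at 0.98 to 0.99 over all genes. Every probe set on the table reached at least 4.79 on some array, as a filter on low values before deposit would leave it, though none is stated. The lowest single value of the 76 genes was 5.50, for Mrpl36 in male 1 at day 14. Of 10 hepatocyte markers 9 were measured, with a mean over them of 10.65 to 11.32 on every array, and at day 14 the mean of 8 of them was above 4.79. Markers of other liver cells moved with the day. The mean over 11 stellate cell and fibroblast markers was 7.67 to 7.88 at day 1 and 4.96 to 7.43 at day 14, and 6 of them fell and 1 rose over that span. Over 7 endothelial markers the mean was 5.12 to 6.08 at day 1 and 3.83 to 5.31 at day 14, with 3 that fell, or 5 with the preparation as a block. Over 12 Kupffer cell and macrophage markers it was 4.48 to 5.56 and then 5.31 to 7.23, with 2 that rose, or 9 with the block. Over all 5 cholangiocyte and progenitor markers the mean was 5.88 to 6.38 at day 1 and 6.83 to 7.38 at day 14. Of the 5, 3 rose, and with the block 1 other fell. The part of these shifts in any value below was not tested. In RNA of whole spheroids, fewer cells of a type and less RNA per cell cannot be told apart.

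The levels of the mitochondrial ribosomal protein genes stayed close to where they were at day 1. Between days 1 and 7, 0 of 76 genes passed (limma, Benjamini-Hochberg adjusted p under 0.05 over all 11861 genes), while 4.72% of all genes did. From day 7 to day 14, 0 of 76 passed against 0.489% of all genes. Between days 1 and 14, 0 of 76 passed against 14.4% of all genes. At an unadjusted p under 0.05, limma gave 5, 1 and 6 of the 76 genes in these comparisons, where the share of all genes was 19.5%, 13.7% and 28.6%. When preparation entered the model as a block, 0 of 76 passed in each of the 3 comparisons, against 4.72%, 0.852% and 14% of all genes. A fit that let the spread depend on the level and resisted outliers called Mrpl1 and Mrpl42 for day 1 to day 7, both higher. For day 1 to day 14 it called Mrpl42 and Mrps18b, both higher. Of all 11861 genes that fit called 956 and 2183 in these comparisons. A filter on a mean level of at least 6 called Mrpl42 alone of the family for day 1 to day 14, and 1602 genes in all. The p-values measure the spread between pools and not between single mice.

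A missing call is not evidence of equality, so the size of the differences is given with its error. The median standard error of a difference was 0.080 for these genes. No gene of the 76 differed between any pair of days by as much as 1.5-fold (0.585 on the log2 scale), whereas 4.33% of all genes did from day 1 to day 7, 2.64% from day 7 to day 14 and 8.09% from day 1 to day 14. Taken gene by gene, the 95% confidence interval of the difference lay wholly within 1.5-fold for 75 genes from day 1 to day 7, for 76 from day 7 to day 14 and for 75 from day 1 to day 14. The exceptions were Mrpl1 in the first comparison, with an upper bound of 0.59, and Mrps35 in the third, with 0.65.

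The median absolute difference from day 1 to day 14 was 0.074 over the mitochondrial ribosomal protein genes and 0.13 over all genes. It was 0.043 over 57 proteins of the cytosolic ribosome and 0.087 over 80 nuclear-encoded subunits of the respiratory chain. Over all 12 arrays a gene of the 76 spanned 0.37 in the median and between 0.15 and 0.85 at the ends, and 0 of 76 spanned more than 1. The median span of all genes was 0.57, and 20.5% of them spanned more than 1. These figures describe the lists, with no test, and the comparisons that share day 1 or day 7 arrays are not independent of each other.

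**Figure D1:**
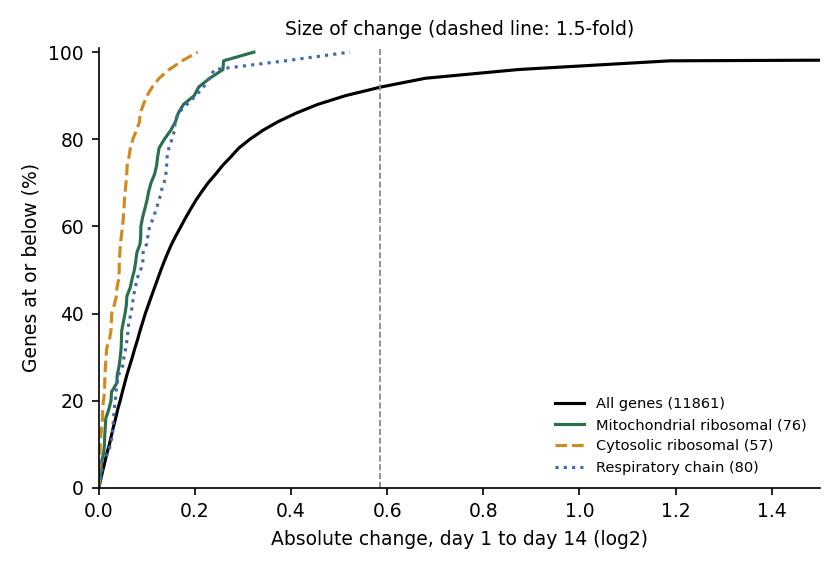
Share of genes (vertical axis, percent) whose absolute difference between day 1 and day 14 was at or below the value on the horizontal axis (log2), for all 11861 genes, the 76 mitochondrial ribosomal protein genes, 57 cytosolic ribosomal protein genes and 80 respiratory chain genes. The axis ends at 1.5, beyond which some of all genes lie, and the curve of the mitochondrial ribosomal protein genes ends at 0.32, left of the dashed line at 1.5-fold.

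Small differences leaned upward. By day 7, 55 of 76 genes had a difference from day 1 above 0, where 49.9% of all genes did. The median was 0.041 in the large and 0.032 in the small subunit, against -0.0004 over all genes. From day 7 to day 14, 45 of 76 lay above 0, where 52.8% of all genes did. The medians were 0.014 and 0.0070 against 0.0082 over all genes. By day 14, 58 of 76 lay above 0 against day 1, where 51.5% of all genes did. The medians were 0.074 in the large and 0.031 in the small subunit against 0.0070 over all genes. A median of this size is a few percent of a level.

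The lean was not the same in each preparation. Up to day 7 the median over the large subunit was 0.025 in male 1, 0.021 in male 2, -0.019 in female 1 and 0.14 in female 2. Over the small subunit it was 0.034, 0.043, -0.0055 and 0.14 in the same order. In female 2, 83.3% of the large and 89.3% of the small subunit genes were higher at day 7 than at day 1, against 53.3% of all genes. In female 1 the shares were 45.8% and 50%, against 48.4% of all genes. The mean level in female 2 was the lowest of the preparations at day 1 and the highest at days 7 and 14, for both subunits. The median level did not show the low start: at day 1 female 2 was highest, at 8.17 in the large and 7.97 in the small subunit. The others were at 8.10 to 8.12 and 7.86 to 7.93. At day 7 its small subunit median of 7.97 was below that of female 1, at 8.05. The mean over 12 Kupffer cell and macrophage markers was lowest in female 2 on each day, at 4.48, 5.31 and 5.31. In the others it was 4.84 to 5.56, 5.78 to 6.63 and 5.58 to 7.23, and the upper value each day was that of female 1. At day 1 female 2 lay within the range of the others for hepatocyte (11.06), stellate cell (7.80) and endothelial markers (5.84). It was lowest for cholangiocyte and progenitor markers (5.88). The part of any marker list in these values was not tested.

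The mean level of the large subunit genes in female 2 was 8.06 at day 1, 8.22 at day 7 and 8.21 at day 14. In male 1 it was 8.10, 8.14 and 8.15, in male 2 it was 8.09, 8.13 and 8.14, and in female 1 it was 8.14, 8.13 and 8.16. The small subunit went from 7.82 to 7.96 and 8.03 in female 2 and from 7.93 to 7.89 and 7.88 in female 1. The female preparations ran in opposite directions in the small subunit. Without female 2, the median difference from day 1 to day 7 was 0.0019 in the large and 0.0013 in the small subunit, and from day 1 to day 14 it was 0.043 and -0.0011. Without female 1 the same values were 0.082, 0.10, 0.11 and 0.085.

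Cytosolic ribosomal protein genes were also split between the female preparations, with a median from day 1 to day 14 of -0.12 in female 1 and 0.105 in female 2, against -0.042 and -0.021 in males 1 and 2. The median of the respiratory chain genes was above 0 in each preparation, at 0.060, 0.054, 0.081 and 0.11 in male 1, male 2, female 1 and female 2. Over all genes it was 0.0026, 0.0052, -0.0068 and 0.027. Of 57 cytosolic ribosomal genes 0 passed in any comparison of days. With the preparation as a block, 2 of 80 respiratory chain genes passed from day 1 to day 7. From day 7 to day 14 it called 0, and from day 1 to day 14 it called 1. Without the block 1 passed from day 1 to day 7, 0 from day 7 to day 14 and 2 from day 1 to day 14. The first was Cox7a1, which rose by 0.88 from 3.73 to 4.61, below the lowest row maximum of the table (limma adjusted p = 0.028, and 0.032 with the block). The other 2 were Ndufa9 and Sdhb, both higher, and both lost the call with the block. With each preparation left out in turn, the rises were 0.69 to 1.07 for Cox7a1, 0.19 to 0.26 for Ndufa9 and 0.22 to 0.39 for Sdhb. These fits leave a sex without a replicate, so their calls are not read.

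**Figure D2:**
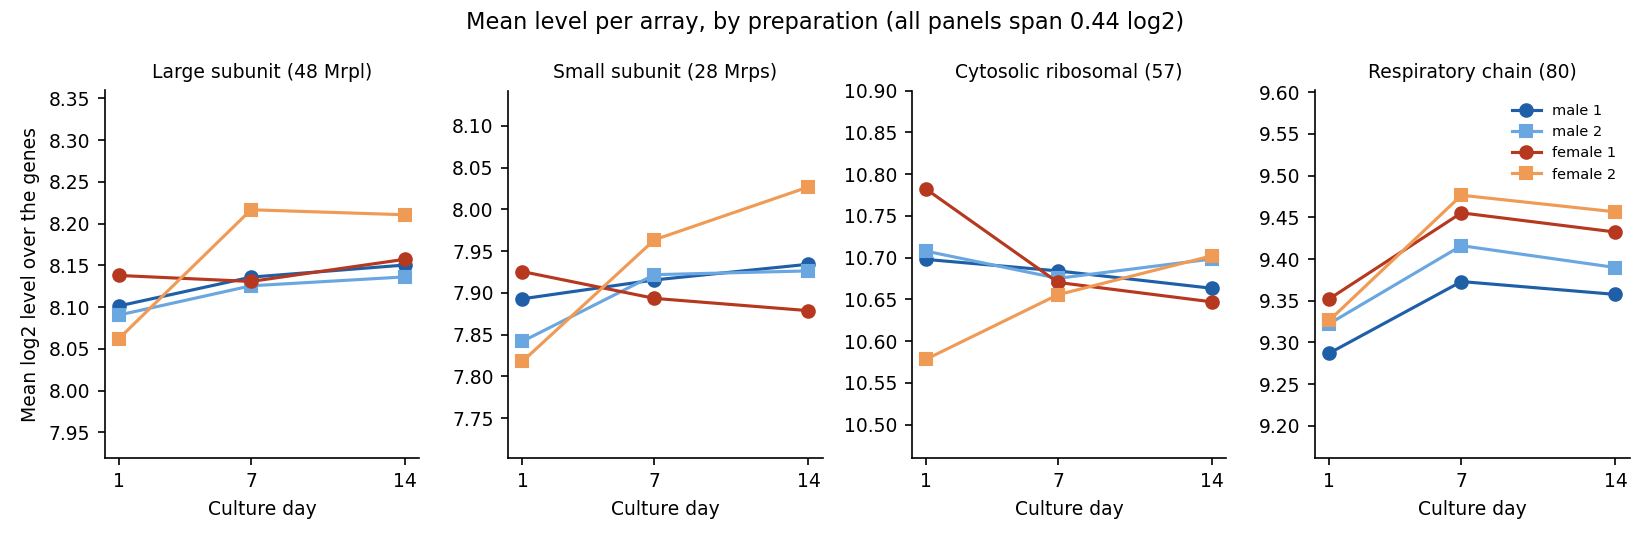
Mean log2 level over the genes of a list (vertical axis, each panel spanning 0.44) on each array, by culture day, for the large subunit, the small subunit, 57 cytosolic ribosomal proteins and 80 respiratory chain subunits, with 1 line for each preparation and no error bars. Female 2 starts lowest and ends highest in both mitochondrial subunits, and levels should be compared within a panel.

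The promoters of these genes were examined for features that the choice by name did not use. A window of 300 bases, from 250 before to 50 after each annotated start, was taken from RefSeq (GRCm38.p6) for 67 of the 76 genes. It was searched on both strands for 3 short cores of factors known to act on nuclear genes of mitochondria: CGCATGCG for NRF1, CCGGAAG for ETS factors such as GABP, and AAGATGGC for YY1. The NRF1 core reads the same on both strands, and an ETS and a YY1 core can share 3 letters. A gene was counted once, if at least 1 of its windows held the core. The ETS core was found in 37.3% of these genes, 19.4% of 9582 genes on the arrays and 12.9% of 17491 protein-coding genes. The YY1 core was in 17.9%, 5.09% and 3.57%, and the NRF1 core in 10.4%, 4.17% and 2.77%. Any of the 3 was in 55.2%, 26.3% and 17.8%.

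By subunit, the ETS core was found in 14 of 42 large and 11 of 25 small subunit genes, and the YY1 core in 6 of 42 and 6 of 25. The NRF1 core was in 7 windows, those of Mrpl9, Mrpl10, Mrpl17, Mrpl22, Mrpl32, Mrpl39 and Mrps18b. The median GC content was 58%, against 60.5% for genes on the arrays. A match describes the letters and not a bound site, and a window without a match says only that these letters are not in it. The median difference from day 1 to day 14 was 0.045 in genes with and 0.066 in genes without the ETS core, 0.076 and 0.057 for the YY1 core, and 0.045 and 0.058 for the NRF1 core.

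**Figure D3:**
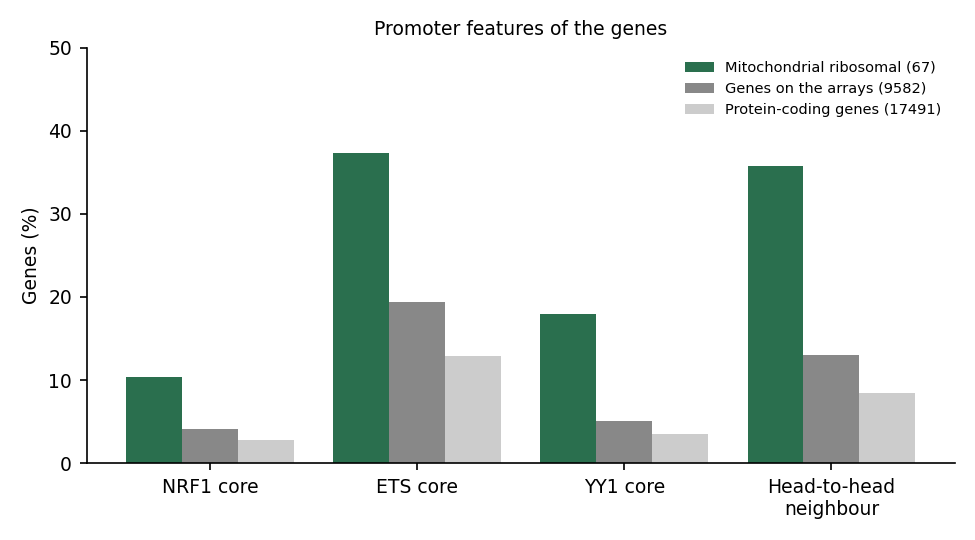
Percent of genes (bars from 0) whose promoter window holds each core on either strand, or that start head to head with another protein-coding gene within 1000 bases, for 67 mitochondrial ribosomal protein genes, 9582 genes on the arrays and 17491 protein-coding genes. The bar of the mitochondrial ribosomal protein genes is the highest of the 3 in each set, at 37.3% for the ETS core and 35.8% for head-to-head starts.

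The windows of the 2 genes with the highest and the 2 with the lowest difference from day 1 to day 14 are shown, among genes with an entry, to set the matches beside the values given further on. Capitals mark a core, and positions count from 1 at the first base after the start and from -1 before it. Mrps35 and Mrps28, whose differences were higher still, had no entry. Mrps18c, on the plus strand at chr5:100798509-100798808, holds the ETS core once, on the opposite strand at -156:
Mrps18c: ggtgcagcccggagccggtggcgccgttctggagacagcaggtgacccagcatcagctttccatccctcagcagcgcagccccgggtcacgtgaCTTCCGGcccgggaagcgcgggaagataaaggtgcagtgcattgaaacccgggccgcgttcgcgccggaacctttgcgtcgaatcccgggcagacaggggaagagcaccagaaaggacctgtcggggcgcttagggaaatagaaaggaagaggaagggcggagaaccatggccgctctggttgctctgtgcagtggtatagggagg
Mrps16, on the minus strand, has a pair of annotated starts. The window at chr14:20393441-20393740 holds the ETS core 2 times, on the opposite strand at -74 and 25, and the other one, at chr14:20393585-20393884, holds none of the 3 cores:
Mrps16: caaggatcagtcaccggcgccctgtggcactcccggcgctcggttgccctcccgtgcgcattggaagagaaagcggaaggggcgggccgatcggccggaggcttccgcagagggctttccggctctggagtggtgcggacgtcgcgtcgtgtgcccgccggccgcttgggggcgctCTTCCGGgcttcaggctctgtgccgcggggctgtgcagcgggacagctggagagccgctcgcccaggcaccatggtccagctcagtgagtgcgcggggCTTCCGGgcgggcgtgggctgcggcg
Mrps9, on the plus strand at chr1:42850983-42851282, holds none of them:
Mrps9: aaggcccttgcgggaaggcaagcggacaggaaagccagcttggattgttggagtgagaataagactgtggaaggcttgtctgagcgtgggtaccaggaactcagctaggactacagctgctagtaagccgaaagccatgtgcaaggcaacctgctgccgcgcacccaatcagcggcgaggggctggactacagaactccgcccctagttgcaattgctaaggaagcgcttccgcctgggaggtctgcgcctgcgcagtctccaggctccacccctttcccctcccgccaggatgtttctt
Mrpl49, on the minus strand at chr19:6057706-6058005, holds the YY1 core at 17, past the start:
Mrpl49: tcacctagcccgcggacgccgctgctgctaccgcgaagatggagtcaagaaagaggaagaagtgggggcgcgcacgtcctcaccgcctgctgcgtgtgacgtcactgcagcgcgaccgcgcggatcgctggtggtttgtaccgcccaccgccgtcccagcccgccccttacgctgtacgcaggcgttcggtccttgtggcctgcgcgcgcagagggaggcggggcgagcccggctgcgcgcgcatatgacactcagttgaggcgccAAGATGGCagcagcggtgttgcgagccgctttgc
Within this small set, a core was present in windows of genes at both ends of the order.

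The position of the genes was examined as well. Of the 67 genes with an entry, 24 (35.8%) start head to head with another protein-coding gene, the starts at most 1000 bases apart, against 13% of genes on the arrays and 8.48% of protein-coding genes. They make 23 pairs. One pair is formed by 2 of the genes themselves: Mrpl46 and Mrps11, a large and a small subunit gene, start 42 bases apart in opposite directions. The window of Mrps11, on the plus strand at chr7:78782881-78783180, covers both starts and is shown for that reason, chosen after its values were seen. It holds the YY1 core on the opposite strand at -107:
Mrps11: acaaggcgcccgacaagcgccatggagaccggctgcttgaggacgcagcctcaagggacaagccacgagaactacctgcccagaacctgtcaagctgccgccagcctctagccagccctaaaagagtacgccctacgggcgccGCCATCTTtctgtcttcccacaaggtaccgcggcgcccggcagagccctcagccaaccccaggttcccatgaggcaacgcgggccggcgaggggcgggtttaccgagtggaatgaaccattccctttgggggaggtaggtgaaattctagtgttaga
From day 1 to day 14 Mrpl46 stood 0.096 ± 0.14 higher (SE) and Mrps11 0.10 ± 0.072 higher, with adjusted p = 0.71 and 0.39 by limma. From day 1 to day 7 Mrpl46 stood 0.19 ± 0.14 higher and Mrps11 0.0086 ± 0.072 higher. Whether these differences are unlike each other was not tested.

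The other partners were of varied kinds. Mrpl47 starts 308 bases from Ndufb5, a subunit of respiratory complex I, Mrps12 starts 147 bases from Sars2, the mitochondrial seryl-tRNA synthetase, and Mrpl43 starts 116 bases from Twnk, the helicase of mitochondrial DNA. Mrpl49 starts 192 bases from Fau, which encodes a protein of the cytosolic ribosome, and Mrpl32 starts 205 bases from Psma2, a proteasome subunit. Of 19 partners that were measured and are not in the family, 0 passed from day 1 to day 7 or from day 1 to day 14 (limma, adjusted p under 0.05). Among all genes 4.72% and 14.4% passed, and so few partners say little beside these shares. Mrpl47 and Ndufb5 stood 0.16 and 0.15 higher at day 14 than at day 1, Mrpl49 and Fau differed by -0.14 and -0.065, and Mrps18c and its partner Helq, a DNA helicase, by 0.26 and -0.28.

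In the large subunit, the difference furthest from 0 was that of Mrpl1, a protein of the movable L1 stalk beside the exit for used tRNAs. Its level at day 1 was 7.38 in male 1, 7.29 in male 2, 7.44 in female 1 and 7.14 in female 2. At day 7 it was 7.50, 7.85, 7.77 and 7.55 in the same order, and at day 14 it was 7.34, 7.32, 7.55 and 7.43. Each day 7 value lay above all 4 of day 1, but at day 14 only female 1 was above them, and the other 3 preparations lay within the day 1 range. The difference from day 1 to day 7 was 0.35 ± 0.10 (SE, 95% interval 0.12 to 0.59), or 1.28-fold, with a limma adjusted p = 0.099. From day 7 to day 14 it was -0.26 ± 0.10 (adjusted p = 0.32), lower in 4 of 4 preparations. Over the alternatives the adjusted p for day 1 to day 7 ran from 0.038 to 0.46.

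Mrpl42, a protein found in mitochondria and without a bacterial counterpart, had the lowest adjusted p from day 1 to day 14. Its level at day 1 was 9.49, 9.55, 9.70 and 9.75 in male 1, male 2, female 1 and female 2. It was 9.82, 9.75, 9.82 and 9.86 at day 7 and 9.76, 9.82, 9.76 and 9.94 at day 14. The day 14 values lay above all those of day 1, with the lowest only just past the highest. The difference was 0.19 ± 0.061 from day 1 to day 14 (95% interval 0.056 to 0.33, adjusted p = 0.067 by limma) and 0.19 ± 0.061 from day 1 to day 7 (adjusted p = 0.13). Over the alternatives the adjusted p for day 14 ran from 0.019 to 0.31, and the difference from 0.16 to 0.23, higher in 4 of 4 preparations.

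Mrpl14 and Mrpl37 followed Mrpl1 in the order of differences from day 1 to day 7. Mrpl14, a conserved protein at the face that meets the small subunit, was 6.81, 6.67, 7.10 and 6.75 at day 1, 6.84, 7.06, 7.31 and 7.11 at day 7, and 6.89, 6.87, 6.91 and 7.05 at day 14, in the same order of preparations. It stood 0.25 ± 0.098 higher at day 7 (adjusted p = 0.21 by limma) and differed from day 7 to day 14 by -0.15. The values of days 1 and 7 overlapped, since female 1 at day 1 was above male 1 and male 2 at day 7. Mrpl37 was 8.0, 8.09, 7.93 and 8.0 at day 1 and 8.14, 8.12, 8.23 and 8.41 at day 7, and these sets did not overlap. It stood 0.22 ± 0.088 higher (adjusted p = 0.22).

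**Figure D4:**
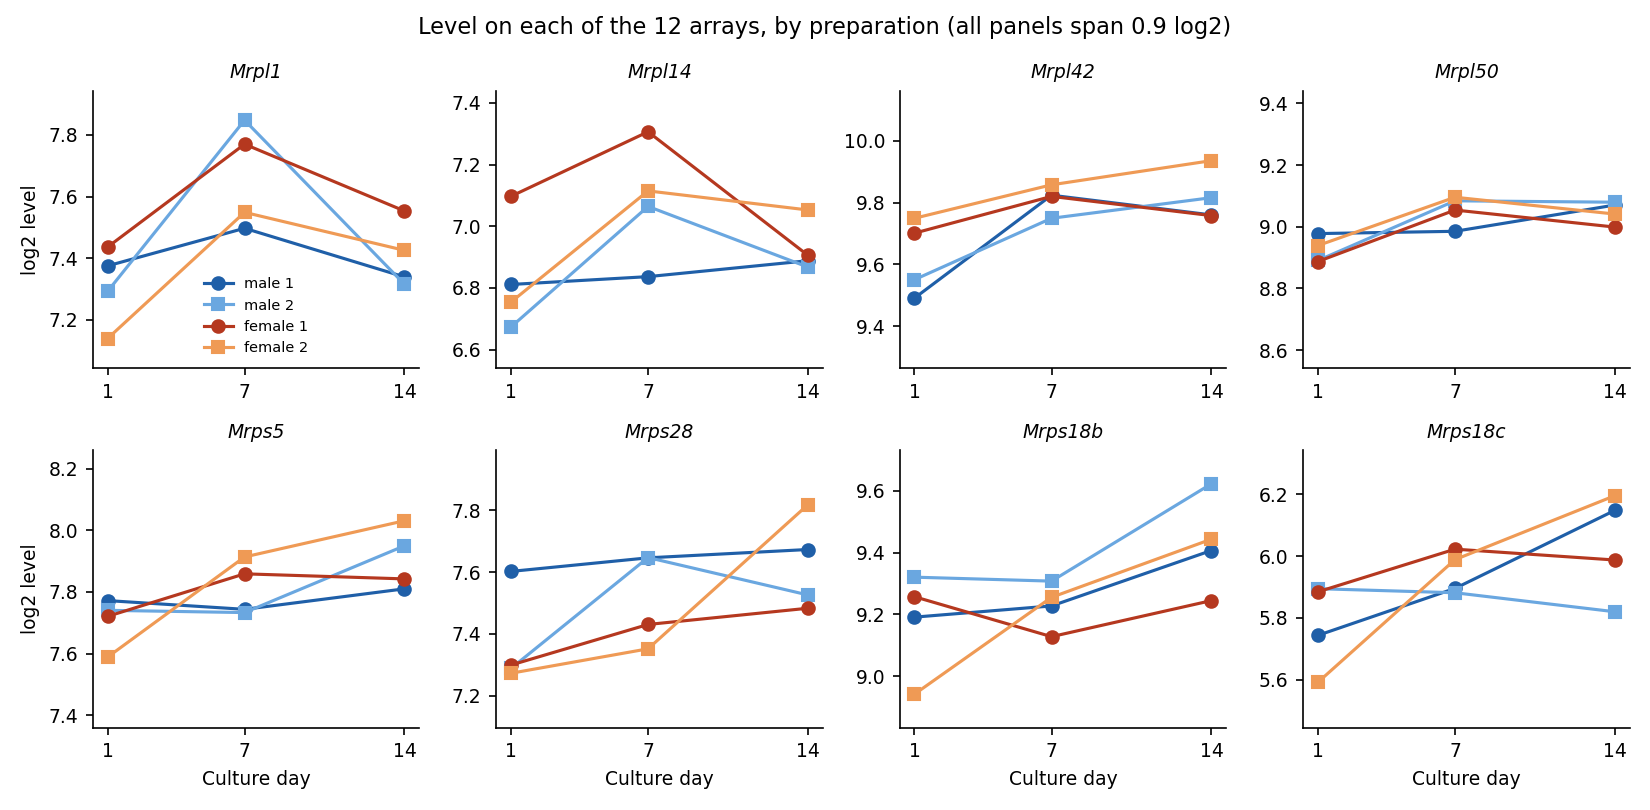
Log2 level (vertical axis, each panel spanning 0.9) of 8 genes on each of the 12 arrays by culture day, with 1 line for each preparation and no error bars. Mrpl1 is highest at day 7 in each preparation, while for Mrps18b and Mrps18c the lines cross and female 2 has the steepest path from day 1 to day 14.

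Mrpl50, another subunit found in mitochondria alone, was 8.98, 8.89, 8.89 and 8.94 at day 1, 8.99, 9.08, 9.05 and 9.10 at day 7, and 9.07, 9.08, 9.0 and 9.04 at day 14. Both later days lay above day 1 without overlap, by small steps: 0.13 ± 0.055 at day 7 and 0.12 ± 0.055 at day 14, with limma adjusted p = 0.23 and 0.18. In all, 4 of 76 genes had every day 7 value above every day 1 value (Mrpl1, Mrpl37, Mrpl50 and Mrps36), against 5.24% of all genes, and 0 had every value below, against 5.19%. Day 14 against day 1 gave 6 above (Mrpl23, Mrpl39, Mrpl42, Mrpl50, Mrpl55 and Mrps5), against 8.25% of all genes, and 0 below, against 7.57%. From day 7 to day 14 there was 1 above, Mrps30, against 2.86%, and 0 below, against 2.35%. The upward counts from day 1 are near the share of all genes.

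Other large subunit genes differed less, or with more scatter. By day 14, Mrpl32, a zinc-binding protein that is cut by a mitochondrial protease before it joins the ribosome, stood 0.21 ± 0.083 higher (adjusted p = 0.13 by limma), with male 2 at -0.033 and female 2 at 0.40. Mrpl23, which lies at the exit of the nascent chain, stood 0.21 ± 0.13 higher, with a range over the preparations of 0.0036 to 0.41. The lowest differences were -0.14 ± 0.080 for Mrpl49, -0.080 for Mrpl34 and -0.077 for Mrpl9. Mrpl49 was 8.76, 8.71, 8.84 and 8.87 at day 1 and 8.53, 8.73, 8.79 and 8.59 at day 14, lower in 3 of 4 preparations and with overlap. The lowest from day 1 to day 7 were Mrpl19 at -0.099, Mrpl30 at -0.071 and Mrpl3 at -0.052. From day 7 to day 14 the highest were Mrpl32 at 0.15, Mrpl36 at 0.15 and Mrpl4 at 0.13, and after Mrpl1 and Mrpl14 the lowest was Mrpl49 at -0.13.

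The large subunit genes with a known special role stayed near their day 1 level. Mrpl12, which forms the stalk that recruits translation factors and also binds the mitochondrial RNA polymerase, was 8.87, 8.82, 8.76 and 8.90 at day 1 and 8.85, 8.73, 8.93 and 9.03 at day 14, higher in both female preparations and lower in both male ones. Its difference of 0.047 ± 0.066 had a limma adjusted p = 0.70. Mrpl45, which lies near the exit tunnel and holds the ribosome at the inner membrane, stood 0.12 ± 0.078 higher (adjusted p = 0.36), in 4 of 4 preparations. Mrpl44, an RNase III relative, differed by 0.058 ± 0.095, and Mrpl58, a peptidyl-tRNA hydrolase that frees stalled chains, by 0.040 ± 0.063. Mrpl3, of the conserved core, differed by -0.038 ± 0.11, with -0.41 in female 1 and 0.18 in female 2.

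**Figure D5:**
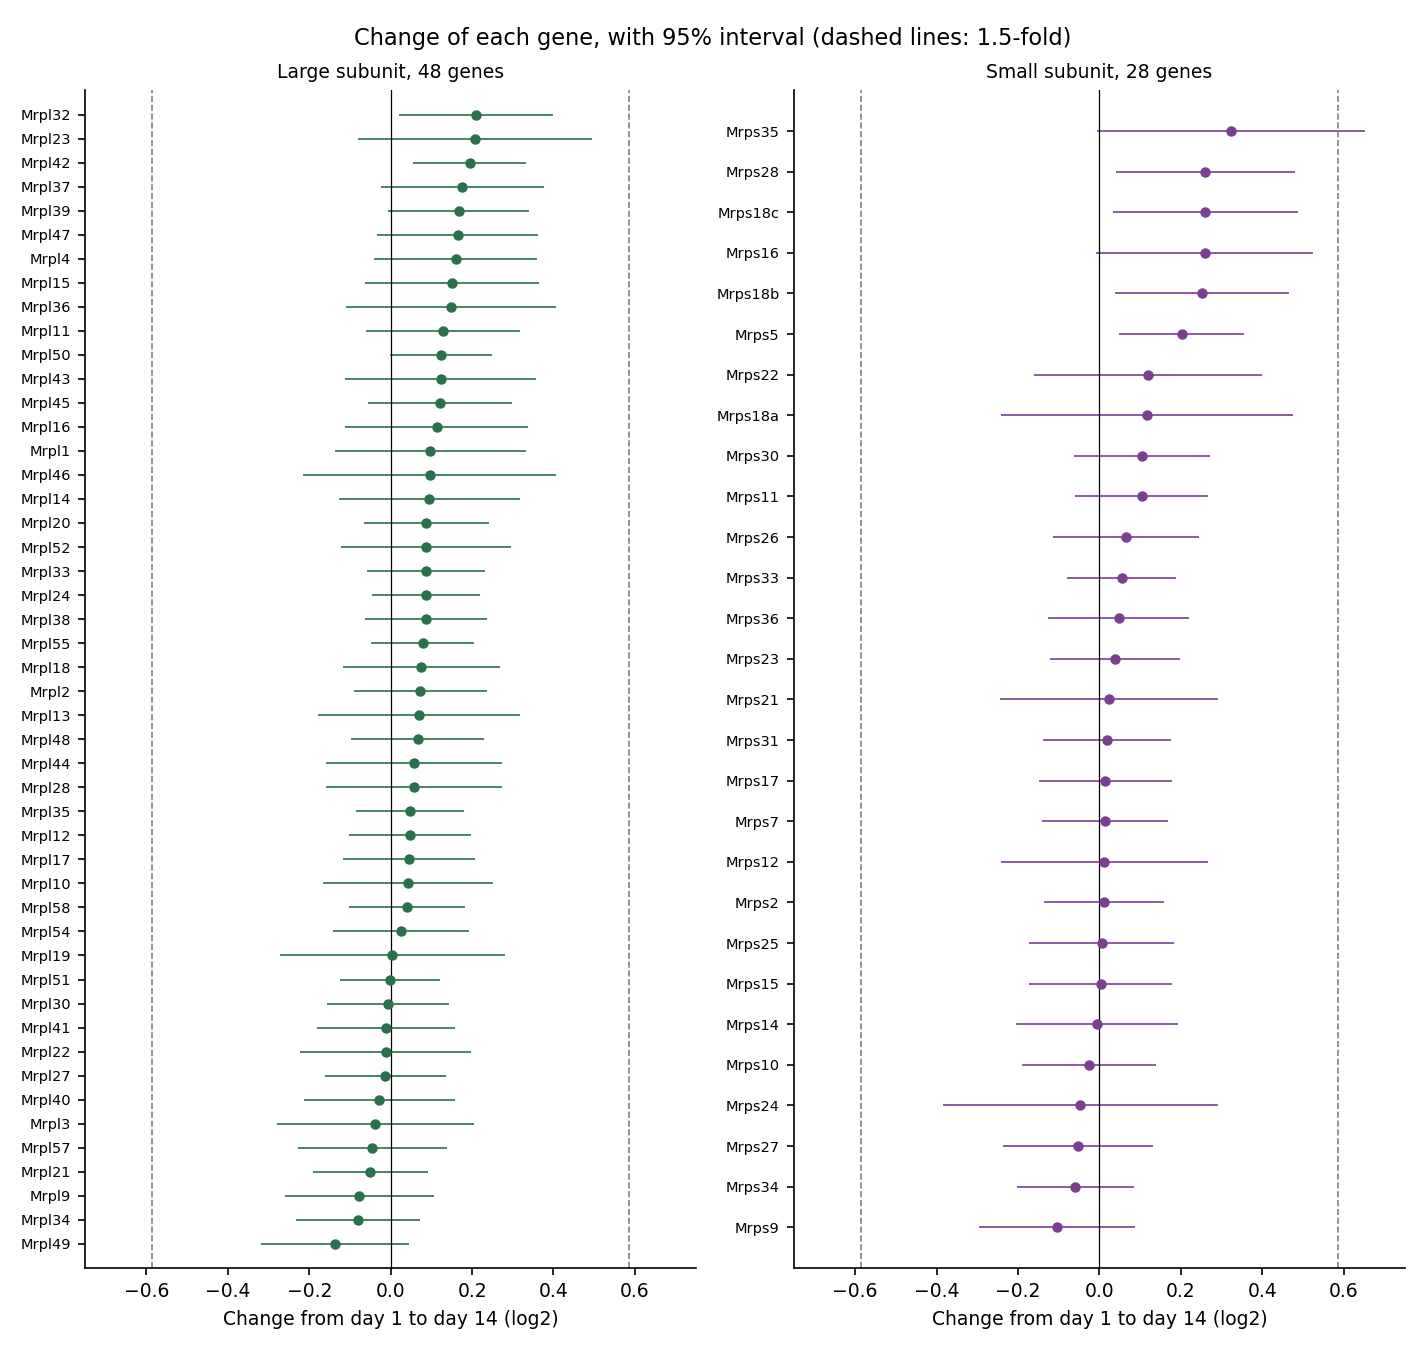
Difference in log2 level from day 1 to day 14 (horizontal axis) for each of the 48 large and 28 small subunit genes, in order of size within a panel. Points are the estimates and lines the 95% intervals of the limma fit over 12 arrays, and the interval of Mrps35 is the one that passes a dashed line at 1.5-fold.

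In the small subunit, the highest difference from day 1 to day 14 was that of Mrps35, a protein without a bacterial counterpart, at 0.32 ± 0.14 (limma adjusted p = 0.18). Its level was 6.23, 5.66, 6.14 and 5.92 at day 1, 6.39, 6.19, 6.23 and 6.05 at day 7, and 6.28, 6.37, 6.07 and 6.51 at day 14, for male 1, male 2, female 1 and female 2. Male 2 and female 2, the low values of day 1, differed by 0.71 and 0.59, while male 1 and female 1 differed by 0.056 and -0.063. Mrps28, another small subunit protein, stood 0.26 ± 0.096 higher (adjusted p = 0.11), and higher in 4 of 4 preparations. It was 7.60, 7.29, 7.30 and 7.27 at day 1 and 7.67, 7.53, 7.48 and 7.82 at day 14, so that male 1 at day 1 lay above 2 values of day 14.

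Mrps5, a conserved protein near the entrance of the messenger RNA, had the lowest adjusted p of the small subunit. It was 7.77, 7.74, 7.72 and 7.59 at day 1, 7.74, 7.73, 7.86 and 7.91 at day 7, and 7.81, 7.95, 7.84 and 8.03 at day 14. The day 14 values lay above all of day 1, and those of day 7 lay on both sides. The difference over the whole span was 0.20 ± 0.067 (95% interval 0.049 to 0.36, adjusted p = 0.081 by limma), or 1.15-fold. Mrps16, a conserved protein of the small subunit whose ETS matches are shown above, stood 0.26 ± 0.12 higher at day 14 (adjusted p = 0.19), with 0.62 in female 2 and 0.11 to 0.17 in the others.

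The 3 Mrps18 paralogs are related copies of one bacterial protein that occupy different places in the ribosome, and Mrps18a lies in the large subunit despite its symbol. From day 1 to day 14 Mrps18c stood 0.26 ± 0.10 higher, Mrps18b 0.25 ± 0.094 and Mrps18a 0.12 ± 0.16, with limma adjusted p = 0.12, 0.12 and 0.69. Mrps18c was 5.74, 5.89, 5.88 and 5.59 at day 1 and 6.15, 5.82, 5.99 and 6.20 at day 14, higher in 3 preparations and lower in male 2. Mrps18b was 9.19, 9.32, 9.26 and 8.94 at day 1, 9.23, 9.31, 9.13 and 9.26 at day 7, and 9.41, 9.62, 9.24 and 9.44 at day 14. Its difference lay mainly after day 7, at 0.20 from day 7 to day 14 and 0.052 from day 1 to day 7. Mrps18a went from 7.04, 6.87, 7.08 and 6.53 to 6.80, 7.07, 6.79 and 7.33, up in one preparation of each sex and down in the other. How far a probe set of one paralog reads another was not tested.

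The other genes with an Mrps symbol and a role of their own differed little. Mrps12, which lines the decoding centre, differed by 0.013 ± 0.11 from day 1 to day 14, with -0.31 in female 1 and 0.25 in female 2. Mrps36, known as a component of the 2-oxoglutarate dehydrogenase complex, is counted with neither subunit when genes are placed by structure. It was 7.51, 7.62, 7.67 and 7.61 at day 1 and 7.83, 7.77, 7.67 and 7.75 at day 7, without overlap and with a limma adjusted p = 0.32. At day 14 it differed from day 1 by 0.048 ± 0.076. Mrps30, which like Mrps18a lies in the large subunit, was 7.66, 7.70, 7.63 and 7.65 at day 7 and 7.80, 7.82, 7.78 and 7.70 at day 14, and stood 0.12 higher.

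Few small subunit genes stood lower. The lowest from day 1 to day 14 were Mrps9 at -0.10 ± 0.084, Mrps34 at -0.059 and Mrps27, an RNA-binding protein, at -0.053, and Mrps27 and Mrps34 were the 2 genes of the family that were lower in 4 of 4 preparations, where 16.2% of all genes were. Mrps9, a conserved protein whose tail reaches the bound tRNA, was 8.58, 8.28, 8.09 and 8.30 at day 1 and 8.25, 8.13, 8.26 and 8.21 at day 14. Male 1 at day 1 was the highest of these values, and female 1 went the other way. Higher in 4 of 4 preparations were 12 genes, 9 large and 3 small, or 15.8% of the family against 18.1% of all genes. Up to day 7 it was 11 higher, against 15% of all genes, and 0 lower, against 14.1%. From day 7 to day 14 it was 8 higher and 3 lower, against 13.2% and 11.3%. The highest of the small subunit up to day 7 were Mrps35 at 0.23, Mrps16 at 0.20 and Mrps18c at 0.17, and from day 7 to day 14 the lowest were Mrps36 at -0.10, Mrps21 at -0.097 and Mrps9 at -0.080.

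The kind of protein was compared next. Large subunit proteins with a bacterial counterpart (29 genes) had a median difference from day 1 to day 14 of 0.073, and those listed as mitochondrial additions (21 genes) had 0.086. In the small subunit the medians were 0.015 (15 genes) and 0.047 (10 genes), where Mrps18a and Mrps30 are counted with the large subunit and Mrps36 with neither. Mrps18a and Mrps18b, though related to a bacterial protein, were listed among the additions. Of 4 measured subunits that go by other symbols 0 passed, and Chchd1, a small subunit protein, had the highest difference at 0.24 ± 0.077 (limma adjusted p = 0.074). Dap3, a GTP-binding small subunit protein, differed by -0.017 ± 0.065.

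Between the sexes, 0 of 76 genes differed over all days (limma on the means of 2 male against 2 female preparations, adjusted p under 0.05), against 0.177% of all genes. At an unadjusted p under 0.05 there was 1 of 76, against 19.8% of all genes. The family was split, with 32 genes higher and 44 lower in males, while 54.8% of all genes were higher in males. In 28 of the 76 the sign was the same at each of the 3 days. The share of all genes for that was not computed. Mrps2, a conserved small subunit protein, had the lowest adjusted p: its means over days were 7.77 and 7.72 in males 1 and 2 and 7.94 and 7.88 in females 1 and 2, a difference of -0.17 ± 0.063 (adjusted p = 0.25). Mrpl14 differed by -0.18 ± 0.072 and Mrpl21 by -0.15 ± 0.062, and in both the male means lay below the female ones. In the other direction, among genes of the same sign at each day, Mrpl3 differed by 0.14, Mrps18b by 0.13 and Mrpl39 by 0.098, and Mrps16, which did not keep its sign, by 0.15.

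The sex difference in the change from day 1 to day 14 gave 0 of 76 genes and 0% of all genes by limma. At an unadjusted p under 0.05 there were 0 of 76 against 6.87% of all genes. The standard error of such a difference had a median of 0.16, wider than for a comparison of days, and 56 of 76 genes had an interval within 1.5-fold. The male change was furthest below the female one in Mrps9, at -0.28 ± 0.17, Mrps22, at -0.28 ± 0.25, and Mrps18a, at -0.28 ± 0.31. It was furthest above it in Mrpl46, at 0.22 ± 0.27, Mrps26, at 0.20 ± 0.16, and Mrps24, at 0.19 ± 0.30. In Mrps18a, Mrps22, Mrps24 and Mrpl46 the preparations of at least one sex ran in opposite directions, and the sign turned when one preparation was left out.

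Genes that serve the mitochondrial ribosome were also largely without a call. Neither step, to day 7 or from day 7 to day 14, had a gene that passed among 27 assembly factors, 19 translation factors, 16 mitochondrial tRNA synthetases, 18 genes of mitochondrial DNA expression and 13 regulators of mitochondrial biogenesis (0 in each list by limma, adjusted p under 0.05). By day 14, Aars2, the mitochondrial alanyl-tRNA synthetase, rose by 0.34 ± 0.098 from 5.62 ± 0.18 (SD, n = 4) to 5.96 ± 0.074, with an adjusted p = 0.049 that became 0.084 with the preparation as a block. Mterf2, of the family of mitochondrial transcription termination factors, rose by 0.43 ± 0.091 from 4.64 ± 0.068 to 5.07 ± 0.11, near the lower end of the table (adjusted p = 0.016, and 0.011 with the block). Mterf2 also passed from day 1 to day 7 with the block, at 0.37 ± 0.091 higher by the unblocked fit (limma adjusted p = 0.060, and 0.038 with the block). With each preparation left out in turn, Mterf2 stood 0.38 to 0.47 higher at day 14 than at day 1. These fits leave a sex without a replicate, so their calls are not read. Aars2 stood 0.20 higher without female 2 and 0.49 higher without female 1.

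The assembly factors had a median of -0.0004 from day 1 to day 14, and the highest was Mrm2, a methyltransferase of the ribosomal RNA, at 0.32 ± 0.16 (limma adjusted p = 0.24). The translation factors had a median of 0.095. Gatb, a subunit of the enzyme that forms glutaminyl-tRNA, stood 0.32 ± 0.098 higher with adjusted p = 0.063, which became 0.040 with the preparation as a block. Of the 13 regulators 3 had a difference above 0. Pprc1, a coactivator related to Ppargc1a, differed by -0.38 ± 0.11, with adjusted p = 0.050 and 0.049 with the block, where the first value lies just above the threshold and the second just below it. Gabpa, the DNA-binding part of GABP, differed by -0.19 ± 0.054 (adjusted p = 0.051, and 0.089 with the block), while Nrf1 differed by 0.0013 ± 0.12 and Ppargc1a by -0.19 ± 0.13. Tfam, which packs and helps transcribe mitochondrial DNA, differed by -0.067 ± 0.089, and Polrmt, the mitochondrial RNA polymerase, by -0.084 ± 0.097. No transcript of the mitochondrial genome itself was on the table used here.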

How the data were processed

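RNA was labelled with biotin and read on arrays, and the table held 13081 probe sets as log2 values deposited by the authors. Per the submitters' processing notes the tools were Partek 7.0, Transcriptome Analysis Console 4.0 and RMA (which corrects background, normalizes and summarizes), with no roles stated. No source used here gives the array's genome build or any low-value filter. Scanner files were not used here, and 0 columns of sample values were left unused. The platform annotation named 11889 probe sets with 1 symbol, and for 19 symbols on several probe sets the highest mean was kept.

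The fits used limma 3.58.1 (R 4.3.3, and version 1.17.8 of data.table) in 1 model of 6 group means over 12 arrays, without trend or robust fitting. Day differences are averaged over the sexes. Sex was tested on the mean of each preparation's 3 arrays. Tests were two-sided, adjusted by Benjamini-Hochberg over 11861 genes, and the scripts were checked on simulated data. A ± on a difference is the model's SE, and on a level the SD between preparations. The labels pair the arrays of a preparation across days. Deviations from the group means of arrays of the same preparation correlated at 0.036 to 0.32 over all genes. Over the family, males and females gave -0.021 and -0.010 for days 1 and 7, and -0.15 and -0.20 for days 1 and 14. For days 7 and 14 the values were 0.28 and 0.31. Precision is limited by the number of arrays.

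The members, lists and tests were chosen with earlier results of these data known. The text names, per day comparison, the 3 highest and 3 lowest differences of a subunit, members with special roles, the 3 furthest sex differences each way (over all days, among members of the same sign at each day), and the furthest gene of other lists. Members whose days did not overlap or whose signs agreed, and a few regulators and partner genes, were named after their values were seen. Alternatives were a preparation block, each preparation left out, median centring, a second quantile normalization, trend and robust fitting, a mean level of at least 6, averaged probe sets, only the days compared, and subunits placed by structure. Promoters came from the RefSeq table of GRCm38.p6.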

Additional observations from a re-analysis of the deposited data

Results flagged for a closer look

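In female 2, the median difference of the large subunit genes from day 1 to day 14 was 0.165, far from the other preparations at 0.033 to 0.049. The mean level of the large subunit genes at day 7 was 8.22 in female 2, against 8.13 to 8.14 in the others. Both were marked because the gap to the nearest of the others took up most of the range of the 4 preparations, 0.87 and 0.89 of it, above Dixon's 95% critical value. Of 48 sets of 4 values examined 2 were marked, and chance marks about 1 in 20.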

How the results depend on the processing

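With the preparation as a replicate block, the paired fit called 0 of 76 genes in each comparison of days and in the sex difference of the change to day 14, and it changed no call within the family. All 7 shifts of a family count or median follow. Fitting with trend and robust spread called 2 genes for day 1 to day 7 (Mrpl1, limma adjusted p = 0.038, and Mrpl42, 0.041). For day 1 to day 14 it called 2 (Mrpl42, limma adjusted p = 0.019, and Mrps18b, 0.031). Over all genes it called 956 and 2183, against 560 and 1706 in the main fit. A mean level of at least 6 called 1 for day 1 to day 14 (Mrpl42, limma adjusted p = 0.047, of 74 genes tested), and 1602 over all genes. With each array centred on its median, the large subunit median from day 7 to day 14 was 0.0086. Leaving out each preparation in turn gave large subunit medians of 0.0019 to 0.082, 0.0085 to 0.015 and 0.043 to 0.11, and small subunit medians of 0.0013 to 0.10, -0.021 to 0.021 and -0.0011 to 0.085, for day 1 to day 7, day 7 to day 14 and day 1 to day 14. Leaving out a preparation left its sex without a replicate on any day, so the calls of these fits are not read. Without the single array of female 2 at day 1, an alternative added after the values were seen, the medians from day 1 to day 14 were 0.047 and 0.017. The cause of these shifts was not tested.

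For genes named as the furthest of a comparison, 549 values under the alternatives kept their direction and side of the threshold, 3 passed it (Mrpl1 to day 7, and Mrpl42 to day 14 under 2 settings) and 15 turned in sign, each of these with a preparation or array left out. Leaving out each preparation in turn gave, to day 7, -0.19 to 0.087 for Mrpl3 (0.026 without male 1), -0.082 to 0.044 for Mrps15 (0.017 without female 1), -0.052 to 0.026 for Mrps34 (0.021 without male 2) and -0.12 to 0.075 for Mrps9 (0.023 without female 2). Mrps9 was 0.029 without the day 1 array of female 2. Mrpl36 from day 7 to day 14 ran from -0.011 to 0.30. The sex difference in the change to day 14 ran from -0.61 to 0.053 for Mrps22 (0.029 without female 2), -0.15 to 0.59 for Mrpl46, -0.27 to 0.65 for Mrps24 and -0.83 to 0.27 for Mrps18a.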

Other observations

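Mrps24, a conserved small subunit protein, differed from day 1 to day 14 by 0.23 in male 1, -0.13 in male 2, -0.60 in female 1 and 0.32 in female 2, with a mean of -0.047 ± 0.15 (SE) and an adjusted p = 0.88 by limma. Mrps22, which has no bacterial counterpart, differed by -0.35, 0.31, -0.049 and 0.57 in the same order. Among genes head to head with a member, Mitd1, the neighbour of Mrpl30, differed by -0.24 ± 0.070 (adjusted p = 0.052 by limma), while Mrpl30 differed by -0.0063.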
